A study of Mus musculus with 11 samples.

Results

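Open chromatin of CD8 T cells after 3 days of activation (day 3 effector) was set against that of naive CD8 T cells. Accessibility was measured by ATAC-seq, which inserts sequencing adapters into open DNA with a transposase, and each library was deposited as a list of called peaks with a normalized tag count (tags counted within the peak, scaled to 10 M (mega) tags of the library). Every peak of the effector or the naive list on chromosomes 1 to 19 and X entered, and peaks sharing 1 bp or more were joined, which gave 93176 regions out of 111041 in all 11 libraries of the study. Of these, 35420 regions (38.0%) were in the effector list alone and are called gained. In the naive list alone were 27096 regions (29.1%), called lost, and 30660 regions (32.9%) were in both lists, called shared.

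The effector library came from CD8 T cells activated outside the animal, and the labels give no sorting gate, stimulus or cytokine for it. The naive library came from mouse splenocytes sorted as CD8+ CD44- CD62L+ Tcf7-YFP+, so naive cells had also been selected for the reporter. Cells of the study carry Tcf7-YFP, a fluorescent reporter of Tcf7, which encodes TCF-1. The other 9 libraries, used only to place the regions, were 1 of antigen-experienced splenocytes (CD8+ CD44+ CD62L+ Tcf7-YFP+) and 8 of cultured cells that were sorted by YFP at day 3 and again at day 9. Of the 8, 2 were YFP-high at both sorts, 3 were YFP-low at both and 3 were low first and high later. Effector and naive cells had 1 library each, and the labels do not say from how many animals or cultures, so no difference below has a replicate check and none was tested. Intervals beside differences are exact 95% intervals of a ratio of tag counts and cover counting error only. In such bulk samples, fewer cells with an open region and less opening per cell cannot be told apart.

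Naive CD8 T cells circulate through lymph nodes and are kept quiescent by transcription factors such as TCF-1, LEF-1, FOXO1 and KLF2, which maintain homing receptors such as CCR7 and the interleukin-7 receptor. Antigen receptor and costimulatory signals activate NFAT, NF-kB and AP-1 factors, and AP-1 acts with BATF and IRF4 at many enhancers that open in activated T cells. Effector cells then make granzymes, perforin and interferon gamma, under T-bet, EOMES, BLIMP-1 and ID2. An ATAC-seq peak marks a promoter, an enhancer or another accessible element, and a change at it need not mean a change of the nearest gene's expression.

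In 57 of the 165 list genes with a promoter window, a promoter region was gained, lost or at least 2-fold higher or lower. Of all 21045 promoter windows, 641 met a gained region alone, 1162 a lost region alone and 348 both. A shared region at least 2-fold higher was met by 230 windows and one at least 2-fold lower by 654. Of the 57 genes, the 3 with the highest naive values (Junb, Klf2 and Fos) and the 2 with the highest effector values (Cish and Ifng) are printed. Havcr2 and Gzmb, chosen after their values were seen, are printed too. Each line gives the 250 bases before an annotated start, 5′ to 3′ on the gene's strand, from RefSeq GRCm38.p6, and capitals mark the bases inside the called region. The windows are chr9:107296409-107296658 (+) for Cish, chr10:118440796-118441045 (+) for Ifng, chr14:56262335-56262584 (-) for Gzmb, chr11:46454681-46454930 (+) for Havcr2, chr8:72318812-72319061 (+) for Klf2, chr8:84978749-84978998 (-) for Junb and chr12:85473640-85473889 (+) for Fos.
Cish: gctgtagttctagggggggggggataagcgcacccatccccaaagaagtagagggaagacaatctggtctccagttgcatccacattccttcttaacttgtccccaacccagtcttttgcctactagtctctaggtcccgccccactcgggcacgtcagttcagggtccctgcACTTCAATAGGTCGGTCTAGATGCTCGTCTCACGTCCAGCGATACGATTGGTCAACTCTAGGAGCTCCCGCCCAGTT
Ifng: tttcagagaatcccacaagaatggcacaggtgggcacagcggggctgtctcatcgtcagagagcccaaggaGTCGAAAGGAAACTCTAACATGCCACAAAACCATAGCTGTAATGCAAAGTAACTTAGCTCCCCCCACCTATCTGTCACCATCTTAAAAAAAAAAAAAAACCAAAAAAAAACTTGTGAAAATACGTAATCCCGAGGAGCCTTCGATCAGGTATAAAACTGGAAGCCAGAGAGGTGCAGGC
Gzmb: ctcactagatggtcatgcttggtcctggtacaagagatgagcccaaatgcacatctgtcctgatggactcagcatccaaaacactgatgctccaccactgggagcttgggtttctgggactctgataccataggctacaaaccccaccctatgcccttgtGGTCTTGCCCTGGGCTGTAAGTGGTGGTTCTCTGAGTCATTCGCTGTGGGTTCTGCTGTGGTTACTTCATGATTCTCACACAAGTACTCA
Havcr2: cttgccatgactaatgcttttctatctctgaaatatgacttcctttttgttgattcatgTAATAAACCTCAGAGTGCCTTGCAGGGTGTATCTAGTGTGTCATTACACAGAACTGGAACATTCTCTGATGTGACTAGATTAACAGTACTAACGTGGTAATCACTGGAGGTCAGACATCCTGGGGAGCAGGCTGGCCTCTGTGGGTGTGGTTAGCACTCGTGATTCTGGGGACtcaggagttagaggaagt
Klf2: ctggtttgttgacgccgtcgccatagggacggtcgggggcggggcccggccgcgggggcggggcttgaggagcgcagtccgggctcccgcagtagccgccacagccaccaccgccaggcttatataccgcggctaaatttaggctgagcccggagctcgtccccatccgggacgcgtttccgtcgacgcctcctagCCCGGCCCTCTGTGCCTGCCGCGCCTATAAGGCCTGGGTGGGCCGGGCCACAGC
Junb: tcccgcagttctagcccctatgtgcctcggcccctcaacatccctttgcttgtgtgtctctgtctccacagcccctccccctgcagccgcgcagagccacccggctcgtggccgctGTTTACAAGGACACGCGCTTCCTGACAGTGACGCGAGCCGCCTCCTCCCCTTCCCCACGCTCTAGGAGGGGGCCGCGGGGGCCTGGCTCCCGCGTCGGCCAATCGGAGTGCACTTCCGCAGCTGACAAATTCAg
Fos: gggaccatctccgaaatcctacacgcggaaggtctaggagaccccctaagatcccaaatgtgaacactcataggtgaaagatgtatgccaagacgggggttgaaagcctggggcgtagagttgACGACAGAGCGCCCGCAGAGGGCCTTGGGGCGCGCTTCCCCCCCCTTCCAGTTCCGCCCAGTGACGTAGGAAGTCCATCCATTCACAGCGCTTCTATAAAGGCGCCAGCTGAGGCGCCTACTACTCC
Cish, Ifng and Gzmb had shared regions with higher values in effector cells, and the Havcr2 region was gained. Klf2 had a shared region with a lower value in effector cells, and those of Junb and Fos were in the naive list alone. At Fos the effector list held its own peak on the lower-case bases, ending 129 bases before the start and 2 bp away from the naive peak. In the Gzmb window the AP-1 motif TGANTCA began 58 bases before the start and the RUNX motif TGTGGT 34 and 93 bases before it, on either strand. In the Havcr2 window the AP-1 motif began 200 bases before the start, just outside the called region, and the RUNX motif 46 bases before it.

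The 2 libraries differed in ways that touch every value. The effector library had 53.2 M tags, of which 9.08% lay in peaks, and the naive library had 37.5 M tags with 15.0% in peaks. Over the other 9 libraries, depth ran from 20.8 to 60.0 M tags and the share in peaks from 9.01 to 15.8%. The weakest peak kept was 2.63 normalized tags (28 read ends) in the effector list and 2.67 (20 read ends) in the naive list, so a region missing from a list lay below that level or failed the caller's comparison with its surroundings, and is not known to be closed. That comparison with local signal removed 53.3% of the putative effector peaks and 46.7% of the naive ones. Peak windows were 172 bp wide in effector cells and 132 bp in naive cells. The part of depth, the share of tags in peaks and the window width in the results was not tested. All 20 genes of the T cell receptor and identity list had a region in both libraries, among them Cd3e, Cd8a and Cd8b1. Most genes did so, since of all 16212 genes with a region 9.27% had none in the naive list and 3.86% none in the effector list.

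Gained regions were weaker in effector cells than shared ones, and further from genes than lost or shared ones. Their median value in effector cells was 7.61 (quartiles 4.61 and 14.0), and that of lost regions in naive cells was 10.3 (quartiles 5.20 and 22.8). Shared regions had medians of 13.1 in effector and 20.1 in naive cells, and all regions of each list 9.68 and 14.5. Values of the 2 libraries are not on one scale, so gained and lost medians cannot be compared directly. Promoter windows, from 250 bases before to 50 after a RefSeq start, were met by 2.55% of gained, 5.40% of lost and 21.8% of shared regions. No protein-coding gene lay within 100 kb of 8.20% of gained, 5.14% of lost and 3.15% of shared regions. Of the 16212 genes with a region, 6541 (40.3%) had both gained and lost regions, 3828 (23.6%) had gained and no lost regions, and 2873 (17.7%) had lost and no gained ones. Thus most loci that had gained regions also had lost ones. Long genes led both counts. Lpp, which encodes a cell adhesion protein and spans 599 kb, had 53 gained and 21 lost regions, followed in gained regions by Sox5 (47), Inpp4b (42), Pde4d (42) and Rad51b (39). Foxp1, a forkhead repressor that maintains T cell quiescence, had 30 gained and 41 lost regions, followed in lost regions by Akap13 (32), Bach2 (32), Inpp4b (30) and Pip4k2a (26).

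Some gained and lost regions lay close to a peak of the other list, and whether such pairs are one element was not tested. Of gained regions, 4231 (11.9%) lay less than 500 bp from a naive peak, and of lost regions 6424 (23.7%) lay that close to an effector peak. The share grew with the value. Of gained regions at 40 or more, 31.6% were that close, against 4.70% of those under 5, and of lost regions 46.5% and 13.1%. At the promoter of Gsk3b, a kinase gene, the effector peak of 70.9 lay 64 bp from a naive peak of 135.5 and 46 bp from another, and each counted as a region of its own. Without these neighbours, 31189 gained regions (33.5%) and 20672 lost regions (22.2%) were left.

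**Figure D1:**
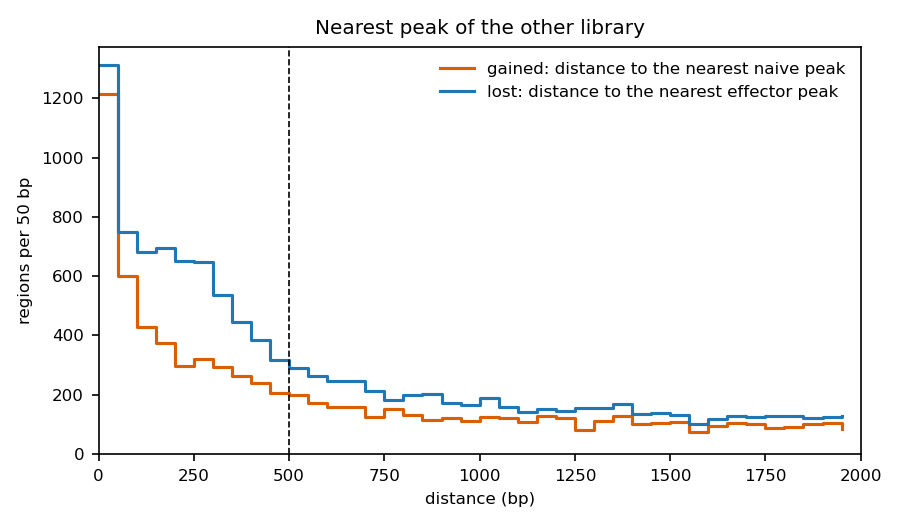
Distance in bp from each gained region to the nearest naive peak (orange) and from each lost region to the nearest effector peak (blue), as regions per 50 bp bin up to 2000 bp, with the dashed line at 500 bp. The first 50 bp hold 1213 gained and 1311 lost regions, above all later bins of both classes.

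In regions called in both libraries, differences were taken as log2(value + 1), effector minus naive, after subtracting from each library its own median over shared regions. This removed a shift of -0.58, the effector median being 3.82 and the naive median 4.40 on the log2 scale. By that measure 3556 shared regions (11.6%) were at least 2-fold higher in effector cells and 2671 (8.71%) at least 2-fold lower. The split follows the scale: without centring it was 1436 higher and 10987 lower, and with centring on the total over shared regions it was 6180 higher and 1052 lower. Differences below are therefore relative to the libraries' own medians, and on that scale the median difference over shared regions was -0.14 (quartiles -0.63 and 0.48). Sums of values given below for genes and lists are not centred. On that scale the totals over all shared regions differed by -0.95 in log2, effector minus naive.

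The difference also went with the level of a region. Shared regions were split into 4 bins of mean level of near-equal size. In the lowest bin the median centred difference was 0.50, with 21.9% at least 2-fold higher and 1.29% lower. In the highest bin it was -0.65, with 0.587% higher and 13.6% lower, at median values of 32.1 in effector and 74.6 in naive cells. Shared regions at promoters, with median values of 27.8 in effector and 62.0 in naive cells, had a median difference of -0.55, and those elsewhere 0.01. A strong promoter with a difference near -0.6 thus stands at the middle of its own level. For this reason a second difference, centred within 20 bins of mean level, is given where it matters and is named the level-centred difference, a choice made after seeing the data. It called 2790 shared regions (9.10%) at least 2-fold higher and 1816 (5.92%) lower.

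**Figure D2:**
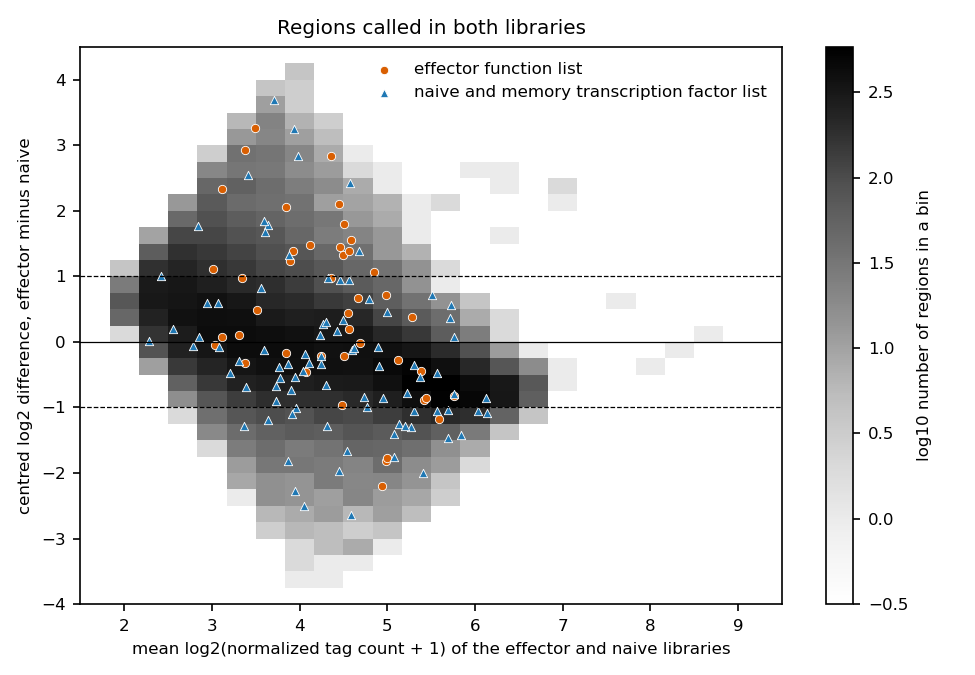
Mean log2(normalized tag count + 1) of the 2 libraries (x) against the centred log2 difference, effector minus naive (y), over 30660 shared regions, with darker squares for more regions and dashed lines at a difference of 1 and -1. Regions of the effector function list (orange circles) lie mostly above 0 and those of the naive and memory factor list (blue triangles) mostly below it, while the cloud of all regions tilts downward with level.

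Genes of effector function (granzymes, perforin, cytokines, death ligands and chemokines) had higher shared regions, while their shares of gained and lost regions lay near those of all regions. Of 148 regions near 16 of the 18 genes, 63 (42.6%) were gained and 42 (28.4%) lost, against 38.0% and 29.1% of all regions. Within 10 kb of a gene the gained share of the list was 26.0%, against 34.9% of all such regions. Of their 43 shared regions, 16 (37.2%) were at least 2-fold higher and 4 (9.30%) lower, against 11.6% and 8.71% of all. The median centred difference was 0.44 and the level-centred one 0.62, above the median of -0.14 of all shared regions. Without centring the list's median was -0.14, against -0.72 for all. Gzmd and Gzme had no region in either list.

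Ifng, which encodes interferon gamma, had the most regions of these genes. Around its span at chr10:118441046-118445894 lay 16 gained, 10 lost and 7 shared regions, and 15 of the gained ones were 500 bp or more from any naive peak. At the promoter, chr10:118440867-118441080, the value was 36.2 in effector and 11.9 in naive cells, a centred log2 difference of 2.11 (interval 1.66 to 2.57). The region 33.8 kb before the gene, chr10:118406913-118407209, had 43.6 in effector and 8.39 in naive cells, a difference of 2.83 (interval 2.35 to 3.37). Both were open in all 8 day 9 libraries, the promoter at 24.0 to 39.6. Another region, 21.6 kb before the gene, went the other way, with 13.1 in effector and 71.2 in naive cells (difference -1.77). The gained region 54.4 kb before the gene (effector 30.0) was in no other library, and the one 24.9 kb beyond it (effector 31.7) was in 7 of 8 day 9 libraries. So the locus held elements of every kind.

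The granzyme genes did not go one way. Gzmb, the main cytotoxic granzyme, had 4 gained, 4 lost and 4 shared regions, and its promoter held 32.7 in effector and 16.1 in naive cells (difference 1.56, interval 1.16 to 1.99). Gzmk had 5 gained regions at 3.10 to 19.8 and none in the naive list, the nearest naive peak being 6118 bp away. Gzma had 1 gained region at 3.48 and 1 lost region at 16.1. Prf1, the gene of perforin, was lower at its promoter, with 25.6 in effector and 70.6 in naive cells (difference -0.85, level-centred -0.30). Its region 1.51 kb from the gene was lower still, with 10.7 in effector and 79.2 in naive cells (difference -2.20, level-centred -1.82).

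Chemokine genes had higher shared regions and ligand and cytokine genes were mixed. The shared regions of Ccl3, Ccl4, Ccl5 and Xcl1 had centred differences of 0.19 to 2.93, the lowest within the shift of -0.58 that centring removed. At Ccl4, an inflammatory chemokine, the shared region held 22.9 in effector and 7.60 in naive cells (difference 2.06), beside a gained region of 30.7. Neighbouring Ccl3 had 33.7 in effector and 13.9 in naive cells (difference 1.80). Xcl1, which attracts cross-presenting dendritic cells, had 13 gained, 9 lost and 4 shared regions, and a region 40.4 kb away held 22.5 in effector and 3.60 in naive cells (difference 2.93). Tnfsf10, which encodes the death ligand TRAIL, had 6 gained, 2 lost and 4 shared regions, whose differences ran from -0.28 to 3.26 (median 0.27). Csf2, which encodes GM-CSF, had 7 gained, 2 lost and 1 shared region (difference -0.04). Fasl, the gene of the death ligand FasL, had 5 gained, 8 lost and 11 shared regions with a median of -0.22, and its sum was 280.2 in effector and 666.8 in naive cells. Tnf had a single shared region, at 32.2 in effector and 87.3 in naive cells (difference -0.83, level-centred -0.11), and Lta, which encodes lymphotoxin alpha, 1 lost and 1 shared region (difference -0.44).

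Genes of effector transcription factors had the highest share of gained regions among the T cell lists. Of 184 regions at 9 genes, 93 (50.5%) were gained and 55 (29.9%) lost, against 38.0% and 29.1% of all regions. The lost share thus lay near that of all regions. Of 36 shared regions 9 were at least 2-fold higher and 5 lower, both larger shares than the 11.6% and 8.71% of all. By the level-centred difference 9 were higher and 4 lower, where 9.10% and 5.92% of all shared regions were. The median centred difference was 0.04 and the level-centred one -0.01, so the middle of the shared regions hardly moved while single ones did. Prdm1, which encodes BLIMP-1, a repressor of the naive program, had 17 gained, 3 lost and 3 shared regions. The gained ones had up to 33.1 normalized tags in effector cells and 14 of them were away from naive peaks. Its promoter region hardly differed, with 28.8 in effector and 47.7 in naive cells (difference -0.13). Zeb2, which acts with T-bet in terminal effectors, had 17 gained and 7 lost regions, and 9 of the gained ones lay inside the gene.

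Id2, an inhibitor of E proteins needed for effector survival, had distant regions that were much higher while its promoter was not. The region 94.4 kb from the gene, chr12:25190443-25190742, held 43.3 in effector and 5.86 in naive cells (difference 3.27, interval 2.71 to 3.86). Others at 59.4 and 93.3 kb had differences of 2.90 and 1.88. The promoter had 41.0 in effector and 107.7 in naive cells (difference -0.79, level-centred -0.06). Bhlhe40, an activation-induced repressor, had a region at 38.7 in effector and 3.46 in naive cells (difference 3.74, interval 3.07 to 4.41), and day 9 libraries held 23.7 to 35.4 there. Stat4, which relays interleukin-12, had 39.0 in effector and 4.80 in naive cells at its highest region (difference 3.37).

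The T-box genes showed less. Tbx21, the gene of T-bet, had 3 gained and 3 lost regions, and its shared regions differed by 0.25 and -0.29, both with intervals that include 0. Its promoter region was in the naive list alone, at 12.0. Eomes had 3 gained and 10 lost regions, the strongest lost one at 56.5 in naive cells, and its 3 shared regions differed by -1.75 to 0.25.

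**Figure D3:**
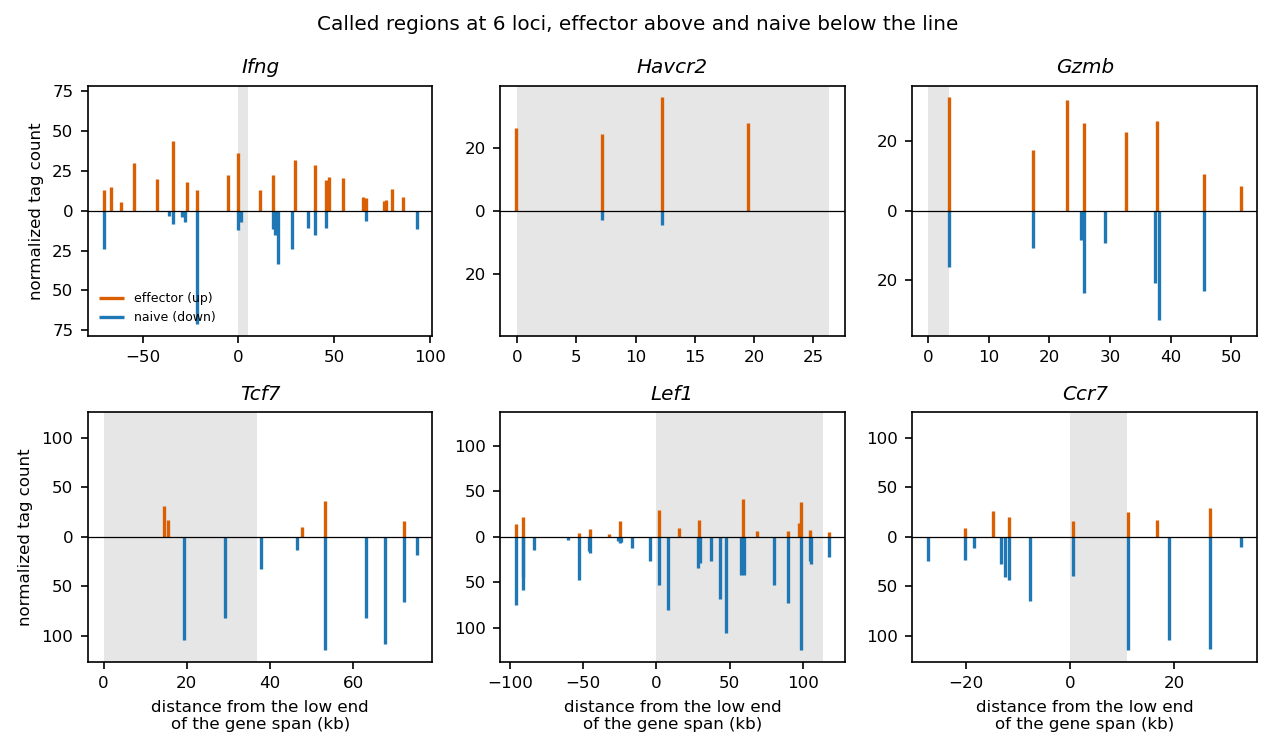
Called regions at 6 loci by distance in kb from the low end of the gene span (grey), with the normalized tag count of the effector library drawn up in orange and that of the naive library drawn down in blue. Ifng, Havcr2 and Gzmb (upper panels) have effector values up to 43.6, 36.1 and 32.7, and Tcf7, Lef1 and Ccr7 (lower panels) have naive values up to 114.5, 124.5 and 114.5.

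Genes of naive and memory transcription factors had the reverse balance. Of 377 regions at 13 genes, 117 (31.0%) were gained and 172 (45.6%) lost, against 38.0% and 29.1% of all regions. Of 88 shared regions, 12 (13.6%) were at least 2-fold higher and 24 (27.3%) at least 2-fold lower, against 11.6% and 8.71% of all. But by the level-centred difference 16 were higher and 13 lower. Their median centred difference was -0.35 and the level-centred one -0.29. Centred on the total over shared regions, the list's median turned to 0.02, where that of all shared regions was 0.23. Values summed over the list's regions, uncentred, came to 3476 in effector and 8093 in naive cells, where totals over all shared regions differed by -0.95 in log2.

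Tcf7 itself, chr11:52246527-52283383, had 7 lost, 3 gained and 2 shared regions. Summed over the locus, effector cells had 110.4 and naive cells 621.3 normalized tags. Inside the gene the naive library held 103.8 at chr11:52265733-52265865 and 81.6 at chr11:52275525-52275657, where the effector library had no peak. Day 9 cells differed between these elements, since the first was called in all 8 libraries (49.8 to 76.2) and the second in 1, at 17.3. The lost region 30.7 kb from the gene, with 108.6 in naive and 115.0 in antigen-experienced cells, was in no day 9 library. The shared region 16.4 kb away held 36.2 in effector and 114.5 in naive cells (difference -1.05, level-centred -0.32), and the one 35.1 kb away held 15.9 and 66.2 in effector and naive cells (difference -1.41, level-centred -1.03). Of the 3 gained regions, at 31.7, 17.0 and 9.59, the first and second were inside the gene and in no other library.

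Lef1, the partner of Tcf7, had 19 lost, 7 gained and 9 shared regions. Its sum was 250.9 in effector and 1138 in naive cells. Inside the gene, chr3:131199961-131200133 had 6.86 in effector and 72.2 in naive cells (difference -2.64, interval -3.13 to -2.20). The region 52.7 kb from the gene had 4.70 in effector and 47.4 in naive cells (difference -2.50). Of its shared regions, 6 were at least 2-fold lower and 1 was higher, at 17.8 in effector and 6.80 in naive cells (difference 1.85).

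The other factors of the list followed in part. Satb1, a chromatin organiser, had 18 lost and 11 gained regions, and its 4 shared regions differed by -1.67 to -0.84. Klf2, which drives the homing genes, had a promoter of 24.6 in effector and 104.1 in naive cells (difference -1.46, level-centred -0.82), and a region 23.1 kb away of 7.99 in effector and 51.8 in naive cells (difference -1.97). Bach2, a repressor of effector genes, went both ways, with 21 gained, 32 lost and 17 shared regions whose differences ran from -1.42 to 3.69. Myb had 1 region at 33.4 in effector and 6.26 in naive cells (difference 2.83), and Ikzf2, which encodes Helios, had 1 at 3.25. Single elements at 9 of the 13 genes were at least 2-fold higher in effector cells, as at 6 of the 9 effector transcription factor genes. Such elements made up 13.6% of this list's 88 shared regions, near the 11.6% of all.

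Genes of homing and survival had fewer gained and more lost regions than all regions, and a lower median of shared ones. Of 187 regions at 11 genes, 57 (30.5%) were gained and 69 (36.9%) lost, against 38.0% and 29.1% of all regions. Of 61 shared regions 5 (8.20%) were at least 2-fold higher and 13 (21.3%) lower, against 11.6% and 8.71% of all. By the level-centred difference 6 were higher and 8 lower. The median centred difference was -0.48 (level-centred -0.27). Ccr7, the lymph node homing receptor, had 2 gained, 7 lost and 5 shared regions, all 5 with negative differences. Next to its span, chr11:99155184-99155383 held 24.9 in effector and 114.5 in naive cells (difference -1.58, level-centred -0.86), and the lost region 8.07 kb away held 104.5 in naive cells. Cd27, a costimulatory receptor of the TNF receptor family, had 3 lost regions at 47.2, 64.4 and 5.20 in naive cells and none in the effector list. Il7r was apart from these, since its shared region had 29.8 in effector and 45.0 in naive cells and a difference of 0.00, and Bcl2 had 15 gained, 13 lost and 11 shared regions with a median of 0.24.

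Genes of the interleukin-2 receptor and costimulation had fewer gained than lost regions but higher shared ones. Of 185 regions, 64 (34.6%) were gained and 78 (42.2%) lost, against 38.0% and 29.1% of all regions. Of 43 shared regions 9 (20.9%) were at least 2-fold higher and 4 (9.30%) lower, against 11.6% and 8.71% of all. By the level-centred difference 14 were higher and 3 lower. The median was 0.36 (level-centred 0.19, and -0.22 without centring, against -0.72 for all). Il2ra, which encodes CD25, had 46.4 in effector and 47.6 in naive cells at its promoter (difference 0.55, interval 0.27 to 0.82). A gained region 19.4 kb before the gene held 47.2, and 7 regions were lost, at up to 76.1 in naive cells. Cish, a STAT5 target, had 43.0 in effector and 26.7 in naive cells at the promoter printed above (difference 1.25). Cd44, whose product marks antigen-experienced cells and whose absence defined the naive sort, had 12 gained, 7 lost and 6 shared regions. Its highest shared difference was 3.37, at 29.9 in effector and 3.46 in naive cells. Il18rap had 7 gained regions, at up to 43.5, and Il12rb2 a region at 30.2 in effector and 5.06 in naive cells (difference 2.95).

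Genes of AP-1, BATF and IRF factors split within the family. Of 130 regions 46 (35.4%) were gained and 42 (32.3%) lost, against 38.0% and 29.1% of all regions. Of 42 shared regions 3 (7.14%) were at least 2-fold higher and 3 (7.14%) lower, against 11.6% and 8.71% of all. By the level-centred difference 6 were higher and 2 lower. The median was -0.21, level-centred 0.23, and 0.16 with centring on the total, so its sign depends on the scale. Junb had 2 lost regions, at 92.7 and 105.5 in naive cells, and the nearest effector peak was 10377 bp away. Neither was in the antigen-experienced list, and the promoter one was in 3 of 8 day 9 libraries at 66.0 to 76.8. The Fos promoter held neighbouring peaks, 34.3 in effector and 88.7 in naive cells. Batf3 had 4 gained regions at 30.6 to 45.0, none of which was in another library. Maf, which drives interleukin-10, had 10 gained and no lost regions. At Batf a region of 32.1 in effector and 8.79 in naive cells (difference 2.34) stood beside a promoter of 15.0 in effector and 78.8 in naive cells (difference -1.74). Irf4 and Irf8 had shared regions of 0.61 to 0.76 and -0.23 to 1.98.

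NFAT and NF-kB genes lay near the background of gained regions and above that of lost ones. Of 148 regions, 53 (35.8%) were gained and 61 (41.2%) lost, against 38.0% and 29.1% of all regions. Of 34 shared regions 6 (17.6%) were at least 2-fold higher and 3 (8.82%) lower, against 11.6% and 8.71% of all. By the level-centred difference 4 were higher and 0 lower. The median was 0.01 (level-centred 0.17). Egr1, an immediate early gene, had 1 gained region at 6.30 and 5 lost ones at up to 97.1.

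Genes of inhibitory receptors and exhaustion were mixed as a list and high at single receptors. Of 142 regions, 56 (39.4%) were gained and 42 (29.6%) lost, near the 38.0% and 29.1% of all regions. Of 44 shared regions 9 (20.5%) were at least 2-fold higher and 5 (11.4%) lower, against 11.6% and 8.71% of all. The median was -0.01 (level-centred 0.07). Havcr2, the gene of TIM-3 at chr11:46454931-46481255, was the clearest. Its promoter region was gained at 26.2, with 6.02 to 11 in the 8 day 9 libraries. Inside the gene another region was gained at 28, and shared regions held 24.3 in effector and 3.06 in naive cells (difference 3.22, interval 2.55 to 3.98) and 36.1 in effector and 4.40 in naive cells (difference 3.36, interval 2.71 to 3.97). No region at Havcr2 was lost.

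Ctla4 had regions 33.5 and 9.46 kb away with differences of 3.54 and 3.11, at 41.9 and 40.8 in effector and 4.53 and 6.26 in naive cells. Its promoter held 42.2 in effector and 59.0 in naive cells (difference 0.11). Pdcd1, which encodes PD-1, had opposite elements. The region 1.02 kb from the gene held 23.3 in effector and 6.13 in naive cells (difference 2.35), and the one 39.3 kb away held 3.38 in effector and 59.8 in naive cells (difference -3.21, interval -3.79 to -2.64). That distant region was in all 8 day 9 libraries at 35.7 to 44.4. Tox had 20 gained and 10 lost regions and no shared region that was 2-fold higher.

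Chemokine receptor and integrin genes had 60 of 141 regions gained (42.6%) and 45 lost (31.9%), against 38.0% and 29.1% of all regions. Their median shared difference was -0.08 (level-centred 0.06). Cxcr4 had lower values, with 6.49 in effector and 58.0 in naive cells at its lowest shared region (difference -2.40). The integrin genes Itga1 and Itgb1 had 15 and 13 gained regions against 0 and 3 lost. Glycolysis and growth genes had few gained regions, 38 of 157 (24.2%), and 61 lost (38.9%), against the same 38.0% and 29.1%. Their shared regions had a median of -0.20, level-centred 0.28 and 0.17 with centring on the total. Of these 58 regions 8 (13.8%) were at least 2-fold higher and 1 (1.72%) lower, against 11.6% and 8.71% of all. Slc7a5, an amino acid transporter induced by activation, had the highest of these named, with 32.6 in effector and 5.73 in naive cells (difference 2.90). The Hk2 promoter had 35.8 in effector and 24.8 in naive cells (difference 1.09).

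**Figure D4:**
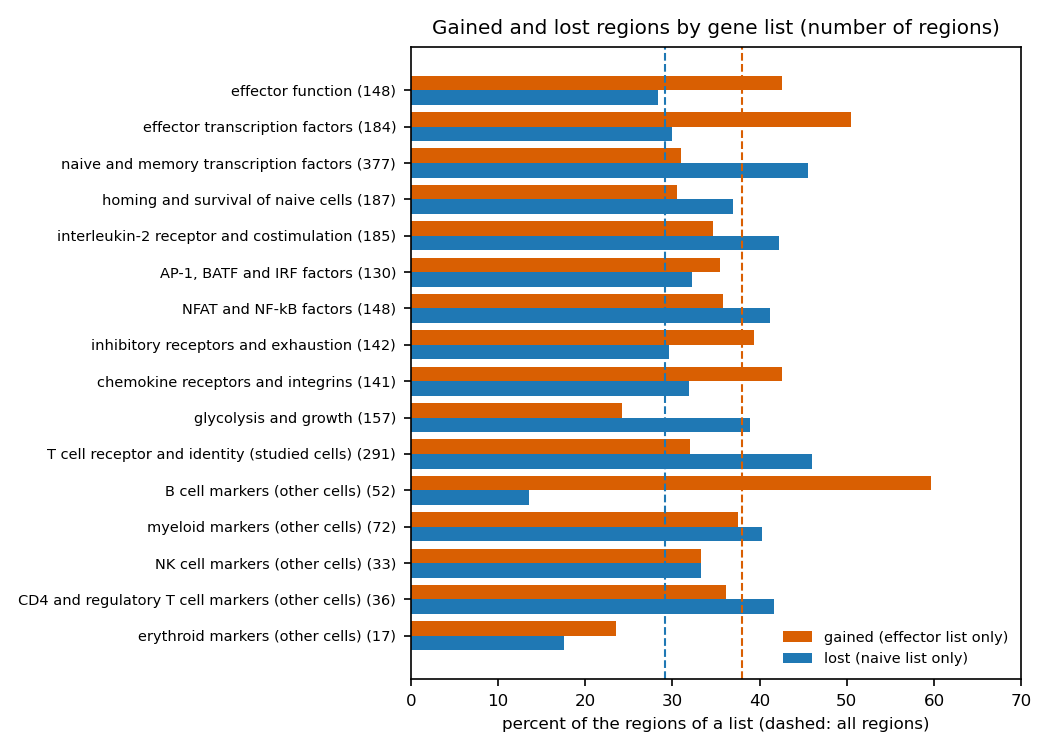
Percent of the regions of each gene list that were gained (orange) or lost (blue), with the number of regions in brackets and dashed lines for all 93176 regions (38.0% and 29.1%). Gained shares run up to 50.5% among the T cell lists, for effector transcription factors, and lost shares to 45.6% for naive and memory factors and 46.0% for T cell identity genes.

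The lists of T cell identity and of other cell types were read the same way. T cell receptor and identity genes had 93 gained (32.0%), 134 lost (46.0%) and 64 shared regions with a median of -0.32 (level-centred -0.02, and 0.05 with centring on the total), and summed values of 2638 in effector and 6240 in naive cells. Of all regions, 38.0% were gained and 29.1% lost, and the lost share of this list was as high as that of the naive and memory factors. At Cd8a the shared regions held 26.3 in effector and 89.9 in naive cells (difference -1.15) and 35.3 in effector and 52.8 in naive cells (difference 0.01), and 3 regions were lost. Runx3, which specifies the CD8 lineage, had 13 lost and 1 gained region.

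Of 10 B cell marker genes, 6 had a region in effector and 7 in naive cells, with summed values of 458.6 in effector and 213.7 in naive cells. Of 52 regions 31 (59.6%) were gained and 7 (13.5%) lost, against 38.0% and 29.1% of all regions. Ebf1, a long B cell factor gene, held 25 of the gained ones and 301.5 of the effector sum. Pax5, which fixes B cell identity, had 4 gained, 1 lost and 3 shared regions, 2 of them at least 2-fold higher, Blk had 1 lost and 3 shared regions, and Ms4a1 had 1 gained region at 3.38. Cd79b had 1 lost region at 11.3, and Cd79a and Fcer2a had none in either list. Of 12 myeloid genes, 9 had a region in effector and 7 in naive cells, summing to 592.2 in effector and 949.9 in naive cells, with Csf1r, Lyz2 and Cd68 at 0 in both. Of 8 NK cell genes, 7 had a region in effector and 6 in naive cells, with sums of 455.4 in effector and 738.1 in naive cells. The CD4 and regulatory T cell and the erythroid lists summed to 241.0 and 194.7 in effector cells and to 433.4 and 243.1 in naive cells. All these sums are uncentred, where totals over all shared regions differed by -0.95 in log2, effector minus naive. A region in either library was found at 8 of the 10 B cell, 9 of the 12 myeloid and 8 of the 8 NK cell genes. Of all 21631 protein-coding genes 16212 had one, 1503 of them in the effector list alone and 625 in the naive list alone. The part of other cells in the gained regions was not tested.

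Few gained regions were found in other cells of the study, while many lost ones were. Of gained regions, 8.17% were called in antigen-experienced cells and 11.8 to 18% in each day 9 library, and 25997 (73.4%) were in none of the other 9 libraries. Of lost regions, 58.7% were called in antigen-experienced cells and 42.1 to 60.4% in day 9 libraries, and 19.6% were in no other. In every day 9 library alike, 1860 gained (5.25%) and 6464 lost regions (23.9%) were called. The contrast held among strong regions, since of 4647 gained regions at 20 or more, 59.5% were in no other library, and of 7834 lost regions at 20 or more, 9.37%. It held also away from neighbouring peaks, with 78.7% of gained and 21.0% of lost regions in no other library. Antigen-experienced cells were sorted from the spleen like naive cells, and day 9 cells were cultured like effector cells. With 1 library on each side, the state of the cells and the preparation of a library cannot be told apart.

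**Figure D5:**
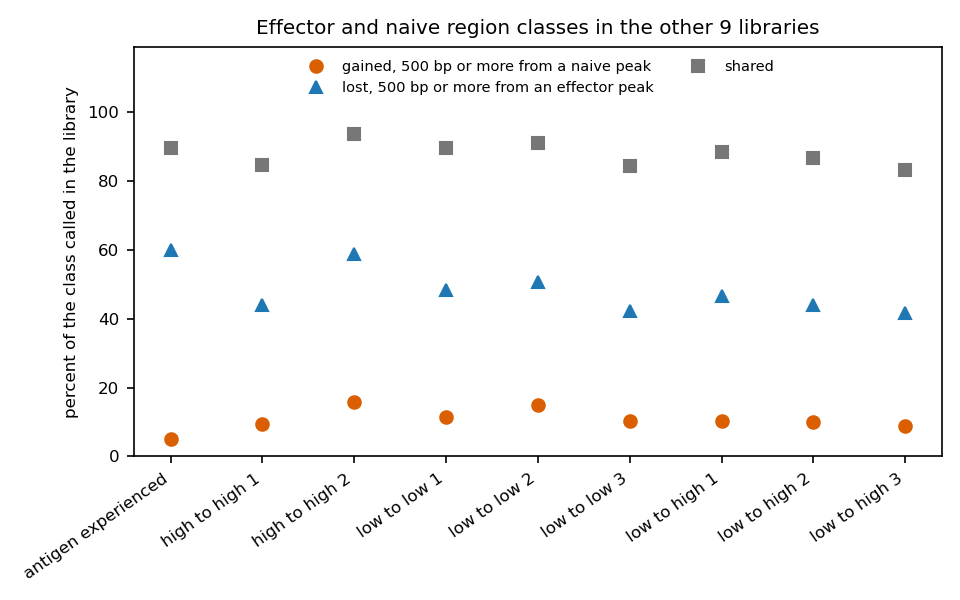
Percent of gained regions (orange, 500 bp or more from a naive peak), lost regions (blue, 500 bp or more from an effector peak) and shared regions (grey) that were called in each of the other 9 libraries. Gained regions lie at 5.05 to 15.7%, lost regions at 41.6 to 60.0% and shared regions at 83.2 to 93.8%.

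Shared regions at least 2-fold higher were called in other libraries less often than all shared regions, and those at least 2-fold lower more often. Of all shared regions, 89.7% were called in antigen-experienced and 83.2 to 93.8% in day 9 libraries. Of the 3556 at least 2-fold higher, these shares were 73.7% and 69.5 to 85.5%, and of the 2671 lower, 98.4% and 95.6 to 98.5%. By size, the highest difference was in Sik3, a salt-inducible kinase gene, where chr9:46083545-46083763 held 55.8 in effector and 3.60 in naive cells (difference 4.21, interval 3.53 to 4.83). Day 9 libraries had at most 5.50 there. In Atxn1, chr13:45649343-45649537 held 53.7 in effector and 3.46 in naive cells (difference 4.20), and day 9 cells had 46.8 to 65.5. These elements thus parted at day 9. The region in Fnip1, with 52.3 in effector and 3.33 in naive cells (difference 4.20), was in none of the other 9 libraries. Kdm1a, a histone demethylase gene, and Nek6, a mitotic kinase gene, had differences of 3.96 and 3.86, and the remaining 5 of the 10 highest lay between 3.79 and 4.06.

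Of the 10 lowest, the region 59.7 kb from Efr3a had 3.29 in effector and 72.5 in naive cells (difference -3.52, interval -4.13 to -2.97). One lay at a promoter, that of Cnr2, which encodes the cannabinoid receptor of immune cells, with 3.57 in effector and 68.2 in naive cells (difference -3.34). The distant Pdcd1 region and those of Msl2, Kif1b, Pakap, Zfp879, Rbm33, Fgd2 and Tshz2 made up the rest, at -3.43 to -3.15. In 9 of these 10, antigen-experienced cells and all 8 day 9 libraries had the region. Of all 2671 shared regions at least 2-fold lower, 98.4% were in the antigen-experienced list and 91.6% in all 8 day 9 libraries.

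The strongest gained and lost regions were mostly neighbours of peaks of the other list, 6 of the 10 gained and 9 of the 10 lost. Away from such peaks, a set chosen after seeing the data, the strongest gained regions lay near Ypel5 (67.3), Slc4a7 (64.9), Aig1 (60.4), Ezh2 (60.4) and Cdk6 (59.6). Ezh2 encodes the methyltransferase of histone H3 in the Polycomb complex, and Cdk6 a cyclin-dependent kinase of the G1 phase. Of the 10 strongest of this set, 5 were in no day 9 library, against 79.4% of all gained regions away from naive peaks. The strongest lost regions away from effector peaks were at Dad1 (169.6 in naive cells), Dnajc5b (127.9), Lonp2 (127.7) and Cytip (127.4), and one near Cxcr4 had 117.8. All 10 strongest of that set were in the antigen-experienced list and 9 in every day 9 library, against 60.0% and 25.2% of all lost regions away from effector peaks.

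Of the motifs searched in promoters, AP-1 and ETS are given in full, and both differed between the classes. The windows searched were 300 bases long, from 250 before to 50 after a start, on both strands, for 21045 RefSeq windows. The AP-1 motif TGANTCA was in 12.0% of the 641 windows that met a gained region alone, in 3.53% of the 1162 that met a lost region alone and in 4.20% of the 7810 that met a shared one, against 7.04% of all. Of windows with a shared region, 9.57% held it where the region was at least 2-fold higher and 2.75% where it was at least 2-fold lower. The ETS motif CCGGAA went the other way, in 12.0% of windows with a gained, 21.0% with a lost and 35.5% with a shared region, against 18.9% of all. Mean GC content was 60.7% in windows with a gained, 61.8% with a lost and 61.7% with a shared region, 62.7% and 58.7% where the shared region was higher and lower, and 56.4% in all. Windows that met no peak held AP-1 motifs in 9.22% and ETS motifs in 6.96%, and the 348 that met gained and lost regions in 3.74% and 30.2%. Some other motifs searched differed less. RUNX was in 15.3%, 12.1% and 12.0% of windows with a gained, lost and shared region. The TCF motif CTTTGA was in 9.67%, 11.4% and 11.4%. A match is a run of letters and does not show binding, and regions outside promoters were not searched.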

How the data were processed

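The deposited files are peak lists of single libraries, called without a control and not on pooled samples, with HOMER 4.10 findPeaks per the file headers. Peaks passed a false discovery rate of 0.001 and, against the 10 kb around them, a 4-fold ratio and a p of 1.00e-04. Bowtie2, DESeq2 and build mm10 are named in the submitters' processing notes without their use. The signal of a peak is the normalized tag count that the authors deposited, tags counted within the peak, scaled to 10 M (mega) tags, per the file headers, where a tag stands for 2 read ends.

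From these lists, peaks on chromosomes 1 to 19 and X (at most 0.104% of a list lay elsewhere and were left out) were merged where they shared at least 1 bp, and the 93176 regions were checked against bedtools 2.31.1. The strongest peak gave a region its value. Differences are of log2(value + 1), centred on each library's median over shared regions, and a size of 1 counted as 2-fold. The pseudocount understates differences of low values. Each region went to the closest span of a protein-coding gene, at most 100 kb away, in RefSeq's GRCm38.p6 annotation, the assembly of mm10. All 212 genes of the 16 lists were in that table, and 165 had a promoter window. Assignment by distance does not show which gene a region acts on. With 1 library a side no test was run. Python 3.11.15, pandas 2.3.3 and scipy 1.17.1 were used, and the merging and the intervals were tested on simulated data.

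The regions and gene lists were chosen with earlier results of these data known. A few genes of the lists are not reported here, and any other could be named, together with the 10 regions of each kind with the largest difference or value and the 5 genes with the most gained and the most lost regions. Alternatives changed the pseudocount, the centring, the minimum value, the overlap that counts as shared, the width of windows and the distance to a gene.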

Additional observations from a re-analysis of the deposited data

How the results depend on the processing

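Of 379 alternative values of the counts, list shares and list medians, 343 stayed within 1.5 times the reported count or within the 95% interval of the share or median. The others follow, and some list medians among them changed sign with the centring. With a pseudocount of 5, 2130 shared regions were at least 2-fold higher in effector cells. Without centring, 1436 were higher and 10987 lower, and list medians were -0.54 for effector transcription factors, -0.93 for naive and memory factors, -1.06 for homing and survival, -0.22 for interleukin-2 receptor and costimulation, -0.79 for AP-1, BATF and IRF, -0.59 for inhibitory receptors, -0.66 for chemokine receptors and integrins, -0.78 for glycolysis and -0.90 for T cell identity. Centred on the total of shared regions, 6180 were higher and 1052 lower, with medians of 0.02 for naive and memory factors, 0.73 for interleukin-2 receptor and costimulation, 0.36 for inhibitory receptors and 0.29 for chemokine receptors and integrins. These shifts are the constant that each centring removes. Centred within bins of mean level, chosen after seeing the data, the medians of chemokine receptors and integrins and of glycolysis became 0.06 and 0.28.

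Among regions of at least 10 normalized tags, 13346 (26.2%) were gained and 13696 (26.9%) lost. Gained shares were 26.2% for naive and memory factors, 30.8% for inhibitory receptors, 33.7% for chemokine receptors and integrins, 23.7% for T cell identity and 20.9% for myeloid genes, and the lost share of erythroid genes was 0.0%. Where peak centres had to lie within 50 bp, 41907 regions were lost and 15915 shared, 1932 of them at least 2-fold higher and 1455 lower. Of lost regions, 15900 were also in the antigen-experienced list. Genes within 10 kb gave gained shares of 26.0% for effector function, 23.2% for AP-1, BATF and IRF and 28% for NFAT and NF-kB, against 34.9% of all regions within that distance. Leaving out regions within 500 bp of a peak of the other list, also chosen after seeing the data, moved none of the list shares past those limits. Of 140 alternative values of single named regions 29 moved, 20 of them with a pseudocount of 5 and 9 without centring. None turned, but the regions were the 10 highest and 10 lowest differences, so this cannot show that signs are stable.

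No paired analysis was possible because each side had 1 library. Depth limits the lists to regions above 2.63 normalized tags in effector and 2.67 in naive cells.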

Other observations

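Genes with regions on one side alone leaned to the effector side, as did regions as a whole, of which 38.0% were gained and 29.1% lost. The effector list was also longer, with 66080 peaks against 57822, and the part of this in the gene counts was not tested. Of 16212 genes with a region, 1503 (9.27%) had regions in the effector list and none in the naive list, and 625 (3.86%) had the reverse. With at least 5 regions, 99 genes were of the effector kind and 2 of the naive kind, Eps8l1 and Mapk15. The effector kind was led by Ccser1 with 16 regions, Kcnk10, a potassium channel gene, with 15, Jcad with 14, and Dclk1, a doublecortin-like kinase gene, and Slc39a12 with 12 each, all chosen after seeing the data. Pparg, which encodes a nuclear receptor best known from fat cells, had 11 regions in effector cells, at 3.29 to 36.2 normalized tags, and none in naive cells.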
